A study of Homo sapiens with 12 samples.

Results

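KPT-330 (selinexor) blocks XPO1, also called CRM1, the receptor that carries proteins with a leucine-rich export signal out of the nucleus. The comparison described here asks what KPT-330 added in JEKO-1 cells, a human mantle cell lymphoma line, that were also given choline salicylate (CS), a salicylate salt. It set the 3 libraries of KPT-330+CS against the 3 libraries of CS alone, which are 6 of the 12 libraries in the series. Cells of all groups had been treated for 48 h, and every group is the same cell line. The other 6 libraries, 3 of KPT-330 alone and 3 of DMSO, the solvent of KPT-330, gave the effect of KPT-330 without CS. Both effects of KPT-330 come from separate libraries, so their difference could be tested directly. Drug concentrations for these libraries are not given here. The labels do not say whether replicate libraries came from separate cultures; p-values therefore measure the spread among these libraries, which may be technical.

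XPO1 works with the small GTPase Ran, which loads cargo onto exportins in the nucleus and releases cargo from importins there. Its cargoes include FOXO factors, inhibitors of NF-kappaB and cell cycle inhibitors, so its block is known to hold such proteins in the nucleus. Mantle cell lymphoma is driven by cyclin D1, and proliferation genes such as MKI67 mark its faster growing cases. A transcript count shows messenger RNA and none of these protein movements, so whether they took place in these cells was not measured.

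Total counts were 35325563 to 54426896 per library in KPT-330+CS, 44871267 to 59490178 in CS, 48439949 to 54865536 in KPT-330 and 44144749 to 50939785 in DMSO. The table lists 64253 genes, 28113 of them without a read in any library, and 19460 entered the test. The unit of level is CPM, the count of a gene relative to the total of its library, with totals scaled by the trimmed mean of M-values (TMM). Log2 fold changes carry a standard error derived from the F statistic of edgeR's quasi-likelihood test in 1 fit of all 12 libraries. A gene was called where that test gave an adjusted p (Benjamini-Hochberg) of at most 0.05. CPM is not scaled by gene length, so levels are compared between groups and not between genes. The libraries of 1 group differed among themselves in how counts followed GC content. The slope was 0.13, 0.03 and -0.15 log2 units per 10 percentage points of GC in the KPT-330+CS libraries and -0.23, -0.10 and 0.06 in the CS libraries, while the KPT-330 libraries were close to each other at 0.20 to 0.23 and the DMSO libraries ranged between -0.31 and 0.09. The part of this gradient in the results was not tested beyond the GC-corrected fit. The spread among libraries, as edgeR's coefficient of variation beyond counting error, was 10.8% in KPT-330+CS, 11.9% in CS, 2.88% in KPT-330 and 15.5% in DMSO. The fit used 1 spread per gene for all groups. The p-values of KPT-330 against DMSO and of the difference thus do not follow these unequal spreads.

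Adding KPT-330 to CS moved almost as many genes as KPT-330 did alone. Genes of mitosis fell deepest, genes of DNA replication and of homologous recombination fell with them, and proteasome, importin and NF-kappaB target genes were also lower. FOXO-type targets were mostly higher, 14 of 28 interferon-stimulated genes rose and 3 fell, and both mitochondrial ribosomal RNAs were higher. Of the 19460 genes, 5081 (26.1%) were higher and 4216 (21.7%) lower in KPT-330+CS than in CS, together 47.8%. Beyond the study's limit of 2 on the log2 scale, 474 genes (2.44%) were higher and 109 (0.56%) lower. In KPT-330 against DMSO 4815 genes (24.7%) were higher and 4631 (23.8%) lower, together 48.5%, and beyond 2 on the log2 scale 523 (2.69%) were higher and 65 (0.334%) lower. With libraries scaled by their total alone, 6549 genes were higher and 3029 lower in KPT-330+CS than in CS, and the median log2 fold change of all genes was 0.16 in place of 0.04, while KPT-330 against DMSO gave 6651 and 2905. The split between higher and lower genes thus depends on the scaling, and changes are read here against that median. Counts within the lists below are to be read beside the shares of all genes, 26.1% higher and 21.7% lower.

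The effects of KPT-330 with CS and without it resembled each other across genes. Of the genes higher in KPT-330+CS than in CS, 3087 (60.8% of them, and 64.1% of those higher in KPT-330 than in DMSO) were higher in both comparisons. Of the lower genes 2882 (68.4% and 62.2%) were lower in both. Pearson's r of the 2 log2 fold changes was 0.70 and Spearman's rho 0.66 across 19460 genes, which are not independent replicates. The difference between the effects passed the test for 2853 genes (14.7%), of which 1565 (8.04%) had the higher fold change with CS and 1288 (6.62%) the lower one. Among those 2853, 314 fell in both comparisons and fell further with CS, 131 fell in both and fell less with CS, 275 rose in both and rose further with CS, and 143 rose in both and rose less. A further 956 were called only in KPT-330+CS against CS, 778 only in KPT-330 against DMSO, 129 were higher with CS and lower without it, 101 the reverse, and 26 were called in neither. The counts for the difference moved with the libraries used: leaving out DMSO replicate 1 gave 2639 and 2072, and leaving out KPT-330 replicate 3 gave 885 and 828.

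**Figure D1:**
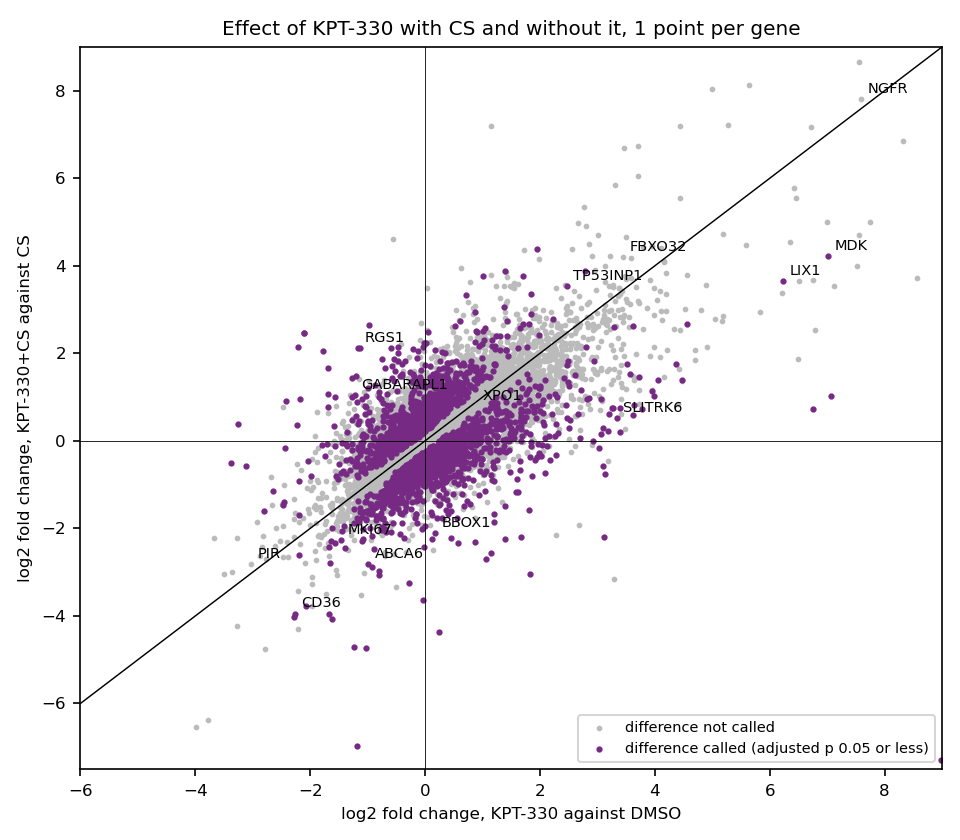
Each point is 1 of the tested genes, with its log2 fold change in KPT-330 against DMSO on the horizontal axis and in KPT-330+CS against CS on the vertical axis; purple points passed the test of the difference and the diagonal marks equal change. NGFR lies near the diagonal at 7.81 with CS, MDK and LIX1 lie below it, RGS1 lies above it, and 5 genes lie outside the axes.

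The target of the drug was measured first. XPO1 (ENSG00000082898, hg38 chr2:61477849-61538626) had 1471, 1501 and 1624 CPM in KPT-330+CS, against 943, 882 and 842 CPM in CS. Higher XPO1 messenger RNA is a known response to XPO1 inhibitors, and here no KPT-330+CS library reached down into the range of the CS libraries. The log2 fold change was 0.78 ± 0.07 (SE, n = 3 each), with an edgeR adjusted p of 1.84e-06. It did not pass the test for a difference from the 0.90 of KPT-330 against DMSO (edgeR adjusted p = 0.501).

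Most of the remaining transport machinery was lower. Among 16 exportin and Ran-cycle genes 2 rose, 9 fell and 5 did not pass, with a median of -0.41 beside 0.04 for all genes. XPO1 was one of those that rose. CSE1L, the exportin that returns importin alpha to the cytoplasm, fell to 273, 284 and 303 CPM in KPT-330+CS, against 456, 434 and 408 CPM in CS (-0.59 ± 0.07, edgeR adjusted p = 2.14e-05). RANBP1, which helps to release Ran-GTP from exportins, fell by 0.78 on the log2 scale and RANGAP1, the GTPase-activating protein of Ran, by 0.89, although RANGAP1 ranged between 58.4 and 91.4 CPM within KPT-330+CS and between 104.6 and 181 CPM within CS. The tRNA exportin XPOT (-0.04) and XPO7 (-0.14) did not pass the test.

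Of 17 importin genes 13 fell, none rose and 4 did not pass (median -0.45). KPNA2, importin alpha 1, which carries cargo with a classical nuclear localization signal, had 70.2, 71.2 and 75.0 CPM in KPT-330+CS and 366, 351 and 345 CPM in CS. Every KPT-330+CS library was far below every CS library, and KPNA2 was among the 12 genes with the deepest fall in the whole comparison (-2.30 ± 0.06, edgeR adjusted p = 4.91e-11). Without CS it fell by 1.64, and that difference passed (-0.65, edgeR adjusted p = 0.000153). KPNB1, importin beta 1, fell by 0.72, KPNA3 by 0.88 and KPNA4 by 0.79. Values of -0.29 for TNPO2 and -0.05 for IPO8 did not pass.

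Genes of G2 and mitosis gave the deepest fall of any list. Of 38 members 36 fell, none rose and 2 did not pass, with a median log2 fold change of -1.37. In KPT-330 against DMSO 35 fell and 1 rose, with a median of -0.84. The fall was larger with CS for 29 members by the test of the difference and smaller for none. With the alternatives run, the first number lay between 23 and 37. In bulk samples, fewer cells of a type, such as fewer cells in mitosis, and less RNA per cell cannot be told apart.

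MKI67 (ENSG00000148773, hg38 chr10:128096659-128126385), whose product Ki-67 coats mitotic chromosomes and marks cycling cells, had 257, 273 and 281 CPM in KPT-330+CS, against 1319, 1333 and 1235 CPM in CS. The level was thus 4.79 times lower with KPT-330 (-2.26 ± 0.06, edgeR adjusted p = 5.19e-11). Without CS it had 433, 420 and 430 CPM in KPT-330 and 1092, 1192 and 1245 CPM in DMSO, a fall of 1.46, and the difference of -0.80 passed (edgeR adjusted p = 7.12e-05). CENPA, the histone H3 variant of centromeres, had 13.1, 14.3 and 13.1 CPM in KPT-330+CS and 58.1, 57.4 and 54.1 CPM in CS (-2.07 ± 0.07). BIRC5, the survivin subunit of the chromosomal passenger complex, had 31.6, 28.3 and 24.3 CPM in KPT-330+CS and 85.8, 95 and 112 CPM in CS (-1.80 ± 0.11). KIF23, a kinesin of the central spindle, had 41.8, 44.6 and 48.2 CPM in KPT-330+CS and 151, 144 and 136 CPM in CS (-1.68 ± 0.08). All of these fell further with CS than without it. FOXM1, a transcription factor for mitotic genes, shows the contrast most plainly, at -1.23 with CS and -0.15, which did not pass, without it (difference -1.08, edgeR adjusted p = 2.65e-05; it was picked after its values were seen). BUB3, a spindle checkpoint protein, stayed at 333, 336 and 349 CPM in KPT-330+CS beside 326, 314 and 321 CPM in CS and did not pass, nor did CDC25B at -0.29.

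Mitotic promoters are known for the cell cycle homology region (CHR), a short element bound by the DREAM and MuvB complexes, often close to a CCAAT box, while many replication promoters hold E2F letters. RefSeq promoters (GRCh38.p14, 250 bases before to 50 after the start of the gene) were found for 11569 of the tested genes and for 31 of the G2/M members. The CHR letters TTTGAA, read on both strands, were in 21 of those 31 promoters (67.7%) and in 1196 of all 11569 (10.3%). They were in none of 37 replication promoters and in 3 of 32 promoters of recombination genes (9.38%). CCAAT was in 74.2% of the G2/M promoters and in 37.0% of all. The E2F letters TTCCCGCC, whose end can overlap a CCAAT as in PRIM1, were in 24.3% of the replication promoters, 28.1% of the recombination promoters, 6.45% of the G2/M promoters and 5.05% of all. The 5 promoters below belong to genes with some of the deepest falls in these lists and show how the letters sit in the 100 bases before and 20 bases after the start of each gene. Each is written 5′ to 3′ on the strand of the gene, with TTTGAA in capitals, as are CCAAT, which reads ATTGG from the opposite strand, and TTCCCGCC, which reads GGCGGGAA from there.
MKI67 (chr10:128126404-128126523, minus strand): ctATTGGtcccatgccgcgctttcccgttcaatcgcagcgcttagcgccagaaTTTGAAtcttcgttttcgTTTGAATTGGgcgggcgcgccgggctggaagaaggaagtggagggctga
CENPA (chr2:26785956-26786075, plus strand): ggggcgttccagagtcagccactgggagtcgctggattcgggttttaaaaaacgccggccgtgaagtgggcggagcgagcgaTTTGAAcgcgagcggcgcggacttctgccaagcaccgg
KIF23 (chr15:69414249-69414368, plus strand): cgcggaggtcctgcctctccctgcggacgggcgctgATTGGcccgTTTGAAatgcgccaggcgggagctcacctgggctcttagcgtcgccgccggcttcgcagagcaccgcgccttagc
CLSPN (chr1:35769959-35770078, minus strand): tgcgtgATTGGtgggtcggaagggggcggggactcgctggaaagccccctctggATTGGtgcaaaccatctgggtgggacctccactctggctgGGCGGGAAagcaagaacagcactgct
RAD54L (chr1:46247588-46247707, plus strand): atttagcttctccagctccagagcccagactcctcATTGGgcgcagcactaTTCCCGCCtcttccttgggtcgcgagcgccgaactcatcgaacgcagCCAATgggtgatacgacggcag
MKI67 holds the CHR letters at 2 places, the second sharing a base with an ATTGG, and KIF23 holds an ATTGG just before them. The letters did not mark the size of the fall. The 21 G2/M members with TTTGAA had a median log2 fold change of -1.36 and the 10 without it -1.40. A match describes the letters only and is no evidence of binding.

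DNA replication genes mostly fell with CS, while without it most did not pass the test. Of 44 members 34 fell, 2 rose and 8 did not pass in KPT-330+CS against CS (median -0.54), whereas in KPT-330 against DMSO 14 fell, 6 rose and 24 did not pass (median -0.02). The difference was called lower with CS for 28 members and higher for none. With the alternatives run, the number lower lay between 22 and 38 and the number higher between 0 and 1. CDC45, a subunit of the replicative helicase, had 42.5, 41.6 and 39.4 CPM in KPT-330+CS and 93.8, 104 and 112 CPM in CS (-1.33 ± 0.08, edgeR adjusted p = 2.61e-08). In KPT-330 it had 109, 105 and 109 CPM, inside the DMSO range of 104 to 129 CPM, and the difference of the effects was -1.21 (edgeR adjusted p = 2.81e-05). CLSPN, claspin, which couples the replication fork to CHEK1, had 37.9, 39.6 and 40.6 CPM in KPT-330+CS and 122, 116 and 105 CPM in CS (-1.54 ± 0.08). MCM10 fell by 1.11 and POLA2, a subunit of DNA polymerase alpha, by 1.01. RPA1, which coats single-stranded DNA, had 211, 216 and 220 CPM in KPT-330+CS beside 210, 210 and 202 CPM in CS and did not pass, and MCM2 (-0.21) did not pass either.

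Enzymes that supply nucleotides moved the same way in most cases, with 17 of 24 lower, 1 higher and 6 not passing (median -0.45, against -0.18 without CS). CTPS1, CTP synthase, had 36.6, 35.5 and 35.5 CPM in KPT-330+CS and 113, 115 and 110 CPM in CS (-1.65 ± 0.05, edgeR adjusted p = 8.81e-11). RRM2, the regulated subunit of ribonucleotide reductase, had 122, 128 and 140 CPM in KPT-330+CS and 360, 332 and 334 CPM in CS (-1.40 ± 0.07). These 2 genes fell further with CS, by differences of -1.05 and -1.02. MTHFD1 and TYMS, of folate-dependent synthesis, fell by 1.01 and 1.00, and both overlap a neighbouring gene whose reads cannot be told apart. SHMT2 (-0.12) and IMPDH2 (0.24) did not pass. Of the 24 genes 11 had a lower fold change with CS by the test of the difference, and 7 did when CS replicate 2 or DMSO replicate 2 was left out.

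Homologous recombination and Fanconi anaemia genes repeated the pattern of the replication genes. Of 37 members 29 fell, 2 rose and 6 did not pass (median -0.59), against 13, 2 and 22 without CS (median -0.04). The difference was called lower with CS for 19 and higher for 1. With the alternatives run, the number lower lay between 15 and 31, the latter after GC correction, and the number higher between 0 and 2. BRCA1, the ubiquitin ligase that steers repair toward recombination, had 65.4, 72.8 and 75.4 CPM in KPT-330+CS and 120, 115 and 108 CPM in CS (-0.68 ± 0.07, edgeR adjusted p = 5.97e-06). KPT-330 libraries had 92.2 to 93.0 CPM and DMSO libraries 89.7 to 109 CPM, which overlap, and the difference was -0.58 (edgeR adjusted p = 0.0028). BRCA2, a recombination mediator, had 236, 246 and 275 CPM in KPT-330+CS and 596, 557 and 521 CPM in CS (-1.14 ± 0.08). RAD54L, a motor protein of strand exchange, had 26.8, 24.6 and 26.2 CPM in KPT-330+CS and 45.3, 47.3 and 49.9 CPM in CS (-0.88 ± 0.06), and its value without CS was -0.06. GEN1, a nuclease that resolves joint DNA molecules, fell by 0.93, and SLX4, a scaffold for such nucleases, by 0.87. RAD50 (0.17) and PALB2 (-0.03) did not pass.

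Of 18 checkpoint genes 12 fell, 2 rose and 4 did not pass (median -0.39). WEE1, the kinase that holds back CDK1, had 162, 173 and 187 CPM in KPT-330+CS and 377, 353 and 333 CPM in CS (-1.03 ± 0.08). Its opponent CDC25A fell by 0.97. CHEK1 had 74.3, 74.4 and 81.6 CPM in KPT-330+CS and 113, 109 and 104 CPM in CS (-0.50 ± 0.06, edgeR adjusted p = 2.97e-05), with reads that cannot be told apart from those of the overlapping STT3A. H2AFX ranged between 4.77 and 8.47 CPM within KPT-330+CS and between 10.4 and 17.5 CPM within CS (-1.06 ± 0.23). RAD17 (0.11) and RAD1 (0.02) did not pass.

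**Figure D2:**
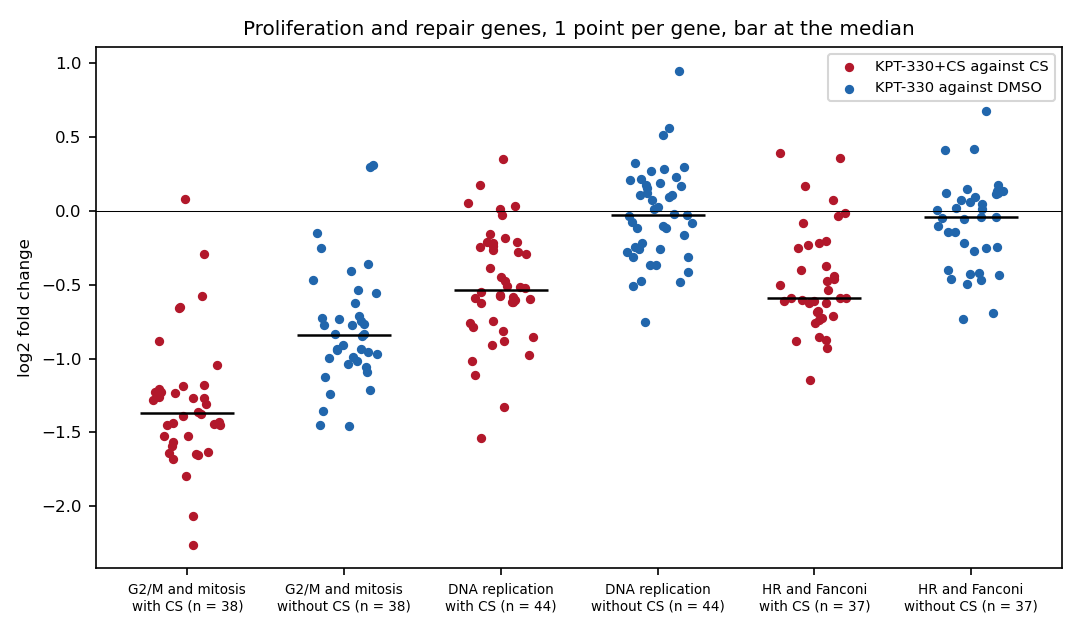
Each point is 1 gene and its height is the log2 fold change of KPT-330+CS against CS (red) or of KPT-330 against DMSO (blue), with a bar at the median. The G2/M medians are -1.37 and -0.84, the replication medians -0.54 and -0.02, and the recombination medians -0.59 and -0.04.

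Regulators of G1 were mixed, with 3 of 22 higher, 9 lower and 10 not passing (median -0.10; with libraries scaled by their total alone 6 were higher and the median was 0.02). CCND1, cyclin D1, showed no measurable change, with 549, 487 and 348 CPM in KPT-330+CS and 350, 421 and 566 CPM in CS. Its groups overlap fully, the log2 fold change was 0.05 ± 0.22, and its values within both groups followed the GC slopes of the libraries. CCND2 rose to 4.39, 5.17 and 5.35 CPM in KPT-330+CS, against 1.59, 2.01 and 1.46 CPM in CS (1.56 ± 0.15). E2F8, a repressor of the E2F family, had 20.5, 23.4 and 22.2 CPM in KPT-330+CS and 55.8, 59.1 and 59.0 CPM in CS (-1.40 ± 0.06), and E2F2 fell by 1.40. CCNE2, cyclin E2, was at 0.14 and did not pass with CS but rose by 0.98 without it, and that difference passed (-0.84, edgeR adjusted p = 0.00418). RB1 was at -0.05 and did not pass.

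CDKN1A, the p21 inhibitor of cyclin-dependent kinases, had 9.44, 8.19 and 6.89 CPM in KPT-330+CS and 9.41, 10.8 and 10.9 CPM in CS, and just missed the threshold (-0.34 ± 0.14, edgeR adjusted p = 0.0508). MDM2, a ubiquitin ligase, had 83.7, 90.9 and 95.9 CPM in KPT-330+CS and 87.5, 87.0 and 80.2 CPM in CS (0.09 ± 0.08) and did not pass. TP53INP1, which promotes autophagy and cell death, had 16.0, 18.3 and 18.5 CPM in KPT-330+CS and 1.70, 1.57 and 1.32 CPM in CS (3.53 ± 0.15), and overlaps NDUFAF6. C12orf5, the glycolytic regulator TIGAR, fell by 1.42 and the nuclease gene AEN by 1.18. BTG2 (0.13) and CCNG1 (0.06) did not pass.

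Genes of the BCL2 family were also split, with 6 of 14 higher, 3 lower and 5 not passing, and 6 lower after GC correction. The BH3-only killers BMF and BBC3 (PUMA) rose. BMF had 43.2, 45.2 and 38.9 CPM in KPT-330+CS and 7.57, 7.50 and 9.03 CPM in CS (2.40 ± 0.11), more than without CS (1.24, difference 1.16, edgeR adjusted p = 0.000345). BBC3 had 4.29, 2.99 and 2.83 CPM in KPT-330+CS and 0.736, 0.434 and 0.859 CPM in CS (2.30 ± 0.24), close to the 2.35 without CS. BCL2A1, a survival protein and NF-kappaB target, fell to 2.70, 2.96 and 3.23 CPM in KPT-330+CS, against 20.5, 19.8 and 18.0 CPM in CS (-2.71 ± 0.12), beside -2.77 without CS. BCL2L2 rose by 1.21. PMAIP1 (0.13) and BCL2L1 (-0.15) did not pass.

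FOXO transcription factors are export cargoes of XPO1. On a list of FOXO factors and known targets 14 of 24 genes rose, 6 fell and 4 did not pass (median 0.45). Whether FOXO proteins had a part in these changes was not tested. FBXO32, the ubiquitin ligase subunit atrogin-1, had 19.6, 19.6 and 21.3 CPM in KPT-330+CS and 1.70, 0.641 and 0.996 CPM in CS (4.2 ± 0.23, edgeR adjusted p = 9.56e-09). TSC22D3, known as GILZ, had 78.9, 74.6 and 74.6 CPM in KPT-330+CS and 17, 16.7 and 17.1 CPM in CS (2.17 ± 0.06), a larger rise than without CS (1.16, difference 1.01, edgeR adjusted p = 1.83e-05). CCNG2, a cyclin of resting cells, rose by 1.40. SESN3 (0.20) and INSR (-0.01) did not pass.

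NF-kappaB is held in check by inhibitors that XPO1 exports. Its subunits and targets were mostly lower, and whether these inhibitors had a part in that was not tested. Of 27 members 18 fell, 1 rose and 8 did not pass (median -0.54, with 17 lower and a median of -0.52 without CS). CD83, an activation marker of B cells, had 16.4, 16.3 and 18.4 CPM in KPT-330+CS and 74.5, 68.2 and 64.8 CPM in CS (-2.02 ± 0.07, edgeR adjusted p = 3.42e-10). ICAM1, an adhesion molecule, had 6.28, 6.4 and 5.19 CPM in KPT-330+CS and 15.7, 16.4 and 17.4 CPM in CS (-1.47 ± 0.10). Both fell further with CS, by differences of -0.93 and -0.95. The chemokine CCL22 had 2 reads over the KPT-330+CS libraries and 312 reads over the CS libraries, a ratio of 0.00669 with a 95% exact interval of 0.000807 to 0.0244 that covers counting error only. The inhibitor-like NFKBID fell to 2.74, 2.56 and 2.49 CPM in KPT-330+CS, against 13.5, 13.9 and 15.5 CPM in CS (-2.46 ± 0.14). RELA (-0.03) and CFLAR (-0.10) did not pass.

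Genes of B cell identity divided, with 7 of 33 higher, 15 lower and 11 not passing (median -0.17), whereas without CS 15 were higher and 8 lower (median 0.22). Of these, 16 had a lower fold change with CS by the test of the difference and 2 a higher one. SPIB, an ETS factor of B cells, had 41.9, 38.7 and 35.8 CPM in KPT-330+CS and 108, 116 and 128 CPM in CS (-1.60 ± 0.09). FCRL1 fell by 1.95, and CD38 rose to 96.4, 101 and 107 CPM in KPT-330+CS, against 54.5, 52.8 and 50.8 CPM in CS (0.95 ± 0.07). PAX5 (0.03) and CD79B (-0.08) did not pass. SOX11, the transcription factor that marks most mantle cell lymphomas, had 96.6, 92.2 and 95.4 CPM in KPT-330+CS and 96.5, 93.5 and 92.0 CPM in CS (0.01 ± 0.06).

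MHC class II genes, which present antigen to helper T cells, were called higher by KPT-330 almost throughout without CS and less often with it. With CS 6 of 15 rose, none fell and 9 did not pass (median 0.09); without CS 14 rose and 1 fell (median 0.77). The difference passed for all 15, lower with CS for 14 and higher for 1, CTSS. HLA-DQB1 had 30.1, 28.0 and 23.3 CPM in KPT-330+CS and 15.1, 15.8 and 20.4 CPM in CS (0.66 ± 0.15), beside 1.89 without CS (difference -1.23, edgeR adjusted p = 0.00211). HLA-DOA, which tunes peptide loading, rose by 0.68. HLA-DRA had 793, 845 and 890 CPM in KPT-330+CS and 893, 866 and 808 CPM in CS (-0.02 ± 0.06), groups that overlap, and the invariant chain CD74 was at -0.01. With a library left out or with the other settings run, the number with a lower fold change with CS lay between 12 and 14. Of 15 MHC class I presentation genes 6 rose, 1 fell and 8 did not pass (median 0.16, against 0.52 without CS). By the test of the difference 1 of them had a lower fold change with CS and none a higher one. With the alternatives run, the number lower lay between 0 and 6 and the number higher between 0 and 2.

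Interferon-stimulated genes had the highest median of the lists with more than 5 tested members, 0.59 beside -0.07 without CS. Of 28 members 14 rose, 3 fell (6 after GC correction) and 11 did not pass, whereas without CS 7 rose and 10 fell. The difference was called higher with CS for 13 and lower for none. STAT2, a transcription factor of the interferon signal, had 180, 187 and 189 CPM in KPT-330+CS and 67.3, 68.1 and 68.3 CPM in CS (1.45 ± 0.05, edgeR adjusted p = 1.41e-10). IFIT2, which binds viral RNA, had 1.41, 1.52 and 1.64 CPM in KPT-330+CS and 0.345, 0.207 and 0.189 CPM in CS (2.64 ± 0.28), and was lower in KPT-330 than in DMSO (-0.97), so its difference was 3.61 (edgeR adjusted p = 0.000169). IFIT5 rose by 2.11 and the exonuclease ISG20 by 1.56. MX2, at -0.03, did not pass. The list as a whole, STAT2 included, summed to 699 to 707 CPM in KPT-330+CS and 513 to 536 CPM in CS. STAT2 alone held 180 to 189 CPM of the first sum and 67.3 to 68.3 CPM of the second. The called members named here all rose, and none of the 3 that fell is among them.

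Genes of protein quality control were mostly lower. Of 31 proteasome genes 29 fell, none rose and 2 did not pass (median -0.57, and -0.47 without CS). PSMD1, the largest non-ATPase subunit of the regulatory particle, had 131, 135 and 144 CPM in KPT-330+CS and 336, 326 and 313 CPM in CS (-1.25 ± 0.06, edgeR adjusted p = 6.64e-09). PSMB4 (-0.28) and PSMB6 (-0.34) did not pass. Of 22 heat shock and chaperonin genes 15 fell and none rose. HSPA8, the constitutive HSP70, had 1013, 1052 and 1153 CPM in KPT-330+CS and 3091, 2979 and 2749 CPM in CS (-1.45 ± 0.07), with small nucleolar RNAs in its introns that cannot be told apart. Of 23 endoplasmic reticulum folding genes 17 fell and 1 rose (median -0.60). HERPUD1 had 75.7, 79.1 and 85.2 CPM in KPT-330+CS and 151, 152 and 141 CPM in CS (-0.89 ± 0.06), and the chaperone gene HYOU1 fell by 0.98. Without CS 20 of these 23 fell (median -0.71), and for 9 the fold change was higher with CS by the test of the difference. Of 20 NRF2 targets and antioxidant genes 15 fell and none rose. PIR, the iron-binding NRF2 target pirin, had 1.89, 1.71 and 1.70 CPM in KPT-330+CS and 12.7, 12.7 and 12.1 CPM in CS (-2.82 ± 0.09), beside -3.03 without CS.

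The integrated stress response was split. Of 29 ATF4-linked genes 10 rose, 9 fell and 10 did not pass (median 0.02, which was -0.05 after GC correction), and 5 fell with libraries scaled by their total alone. DDIT3, known as CHOP, had 92.9, 97.7 and 106 CPM in KPT-330+CS and 47.0, 42.9 and 42.6 CPM in CS (1.16 ± 0.06). DDIT4, an inhibitor of mTORC1 known as REDD1, had 11.7, 11.2 and 9.96 CPM in KPT-330+CS and 3.77, 3.95 and 4.23 CPM in CS (1.46 ± 0.11), but was at -0.09 without CS (difference 1.55, edgeR adjusted p = 4.1e-05). The cystine transporter SLC7A11 fell by 1.60. Of 22 aminoacyl-tRNA synthetase genes, many of them ATF4 targets, 13 fell and none rose; MARS, which overlaps DDIT3, fell by 0.93.

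MYC went against most of the genes it is known to drive. It had 518, 495 and 458 CPM in KPT-330+CS and 209, 222 and 242 CPM in CS (1.13 ± 0.08, edgeR adjusted p = 6.93e-08). Yet of 30 genes on a list of MYC targets and ribosome biogenesis, MYC included, 20 fell, 2 rose and 8 did not pass (median -0.37), and 13 fell with libraries scaled by their total alone. DDX21, an RNA helicase of the nucleolus, had 329, 344 and 371 CPM in KPT-330+CS and 712, 684 and 641 CPM in CS (-0.96 ± 0.07). Of 82 cytosolic ribosomal protein genes 22 fell, 2 rose and 58 did not pass; 8 fell with libraries scaled by their total alone, 39 after GC correction, 14 without KPT-330+CS replicate 2 and 13 without CS replicate 2.

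Energy metabolism was lower in part. Of 34 nuclear-encoded respiratory chain genes 20 fell and none rose (median -0.24), among them CYCS, cytochrome c, with 391, 421 and 448 CPM in KPT-330+CS and 957, 882 and 823 CPM in CS (-1.08 ± 0.08). Of 24 glycolysis genes 5 rose and 11 fell, and 5 fell with libraries scaled by their total alone. The glucose transporter SLC2A3 rose by 1.29 and PFKM by 0.94, while GAPDH (-0.20) and TPI1 (-0.22) did not pass. Of 22 cholesterol synthesis and uptake genes 12 fell and 1 rose. Autophagy and lysosome genes were mixed, with 9 of 30 higher and 5 lower, but 14 higher and 3 lower with libraries scaled by their total alone, 12 lower after GC correction and 3 lower without CS replicate 2. Of 22 immediate-early and feedback genes 7 rose and 5 fell, with a median of 0.06. Beside both of these lists, 26.1% of all tested genes were higher and 21.7% lower, with a median of 0.04. EGR3 had 0.181, 0.107 and 0.194 CPM in KPT-330+CS and 2.55, 3.02 and 2.66 CPM in CS (-4.03 ± 0.29), and EGR1, which is likewise induced by growth signals, had 0.724, 0.693 and 0.883 CPM in KPT-330+CS and 3.47, 3.97 and 4.50 CPM in CS (-2.36 ± 0.17).

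Mitochondrial ribosomal RNA took a larger share of the counts in KPT-330+CS than in any other group. It was 2.52%, 2.56% and 2.75% in the KPT-330+CS libraries, against 1.25%, 1.18% and 1.12% in the CS libraries. In KPT-330 it averaged 1.44% ± 0.03 and in DMSO 1.15% ± 0.10 (SD, n = 3 each). MT-RNR2, the large-subunit rRNA, rose by 1.05 ± 0.08 (edgeR adjusted p = 2.57e-07) and differed from its 0.18 without CS (difference 0.87, edgeR adjusted p = 0.000345). MT-RNR1, of the small subunit, rose by 0.56 ± 0.08, against a fall of 0.20 without CS. The 13 mitochondrial messenger RNAs did not follow: 1 rose, 4 fell and 8 did not pass, and MT-ND6, the only one read from the light strand, fell by 0.55. The number lower was 9 after GC correction, 1 with libraries scaled by their total alone, and 2 without KPT-330+CS replicate 1 or CS replicate 1. Of the 22 mitochondrial transfer RNA genes, whose reads also come from the long precursor, 7 rose and none fell. Over all tested genes 26.1% were higher and 21.7% lower. MT-TV, which lies between both rRNA genes, had 29.3, 27.3 and 30.6 CPM in KPT-330+CS and 9.13, 7.19 and 8.19 CPM in CS (1.83 ± 0.11). The libraries are described as polyA RNA, so levels of these classes rest on what that selection retained, which was not tested. Replication-dependent histone genes, whose normal messages lack a poly(A) tail, showed 14 of 48 higher, 3 lower and 31 not passing (median 0.36). The share higher was near the 26.1% of all genes, and 1 was lower without KPT-330+CS replicate 3 or CS replicate 3. Summed over the list the groups overlapped, at 370.3 to 431 CPM in KPT-330+CS and 308.5 to 372.3 CPM in CS. The sums were higher in KPT-330, at 716 to 723.2 CPM, and in DMSO, at 563.5 to 683.1 CPM. HIST2H2BE, which also has a polyadenylated form, had 57.8, 61.0 and 61.8 CPM in KPT-330+CS and 24.0, 24.7 and 26.9 CPM in CS (1.26 ± 0.06), and was at -0.13 without CS.

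**Figure D3:**
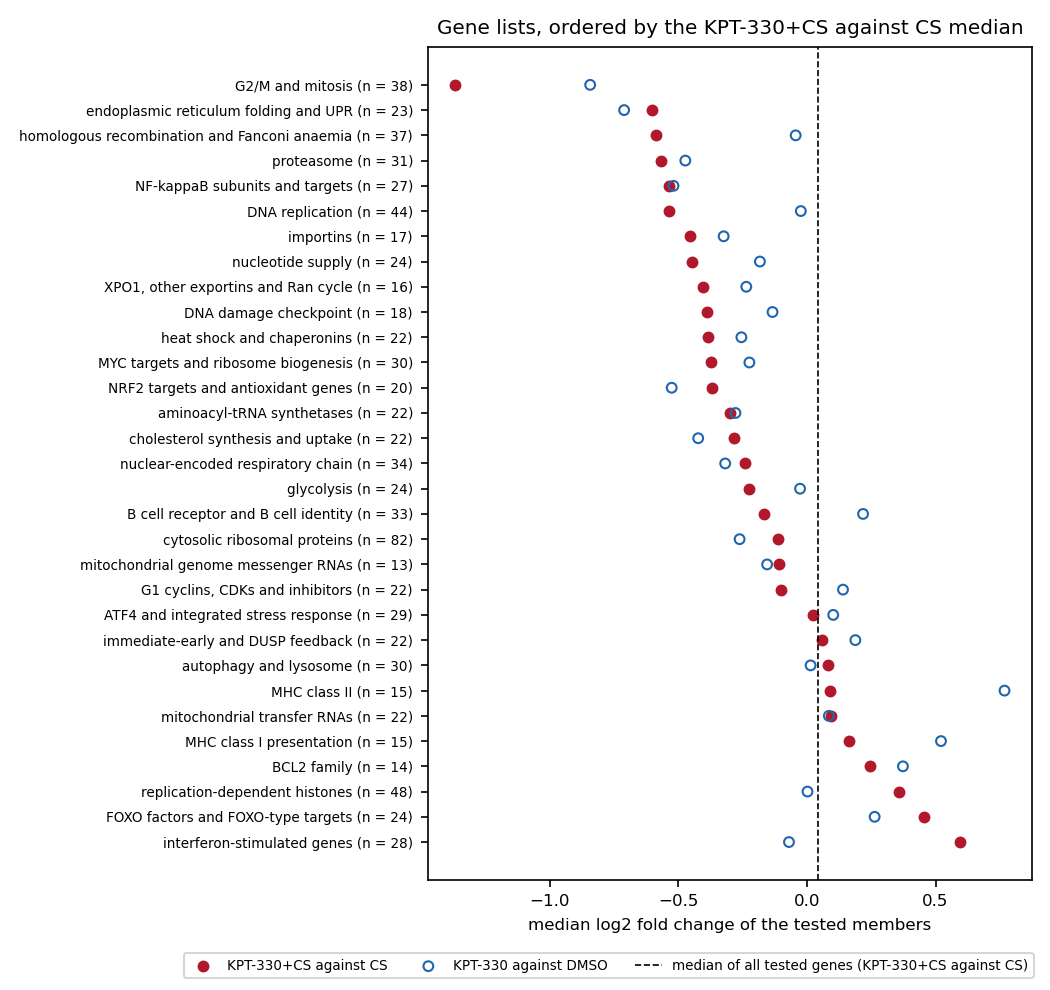
Each row is a gene list with its number of tested members; filled red points are the median log2 fold change of KPT-330+CS against CS, open blue points that of KPT-330 against DMSO, and the dashed line the median of all tested genes, 0.04. G2/M genes lie lowest at -1.37 and interferon-stimulated genes highest at 0.59, and the gap between both points is widest for MHC class II, interferon-stimulated, recombination, G2/M and replication genes.

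Among genes averaging 5 CPM or more in KPT-330+CS, the 12 largest rises came from genes with mean levels of at most 3.91 CPM in CS. NGFR (ENSG00000064300, hg38 chr17:49495293-49515017), the low-affinity neurotrophin receptor, had 30.3, 26.1 and 21.0 CPM in KPT-330+CS and 0.0230, 0.0827 and 0.206 CPM in CS. That is a 224-fold higher level (7.81 ± 0.33, edgeR adjusted p = 1.34e-09), close to the 7.59 without CS. CAPN5, a calpain protease, had 20.3, 19.4 and 15.6 CPM in KPT-330+CS and 0.759, 0.909 and 0.910 CPM in CS (4.41 ± 0.21). DIXDC1, a Wnt pathway scaffold, had 46.2, 49.1 and 50.3 CPM in KPT-330+CS and 3.82, 3.80 and 4.11 CPM in CS (3.63 ± 0.12). ZDHHC11B, of the palmitoyltransferase family, rose by 3.88, C1orf54, which overlaps APH1A, by 4.17, MTSS1L by 3.52, BEX2 by 3.19, GOLGA7B by 3.18 and TUFT1 by 2.98, beside MDK, FBXO32 and TP53INP1. No CS library overlapped a KPT-330+CS library in these genes, by the rule that named them; over all genes 29.6% were higher without overlap. For the 12 together the edgeR adjusted p lay between 1.13e-10 and 1.2e-07, and 3 passed the test of the difference.

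The deepest falls, by contrast, mostly went further with CS than without it. CD36 (ENSG00000135218, hg38 chr7:80369575-80679277), a receptor for long-chain fatty acids, had 0.785, 1.15 and 1.06 CPM in KPT-330+CS and 15.8, 15.8 and 14.4 CPM in CS. This was a level 15.4 times lower with KPT-330 (-3.95 ± 0.13, edgeR adjusted p = 1.05e-10). Without CS it had 7.06, 7.31 and 7.68 CPM in KPT-330 and 32.0, 35.9 and 38.5 CPM in DMSO, a fall of 2.27. ABCA6, of a family of lipid transporters, had 8.41, 8 and 9.65 CPM in KPT-330+CS and 66.2, 61.1 and 57.7 CPM in CS (-2.82 ± 0.10), against -0.99 without CS. TMPRSS15, a serine protease, had 9.21, 9.52 and 9.98 CPM in KPT-330+CS and 67.6, 67.8 and 63.1 CPM in CS (-2.79 ± 0.07). FCRL2, an Fc receptor-like protein of B cells, fell by 2.61, GLRA3 by 2.33 and TMEM229B by 2.25. These genes, PIR, BCL2A1, NFKBID, KPNA2 and MKI67 were among the 12 lowest, which had an edgeR adjusted p between 4.91e-11 and 2.69e-07, and 10 of them passed the test of the difference. The 12 highest and the 12 lowest genes were taken by the fold change with CS, which is 1 part of the difference. That rule favours a larger change with CS, so how many of them passed the test of the difference is a description. Over all genes 24.5% were lower without overlap between the groups.

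**Figure D4:**
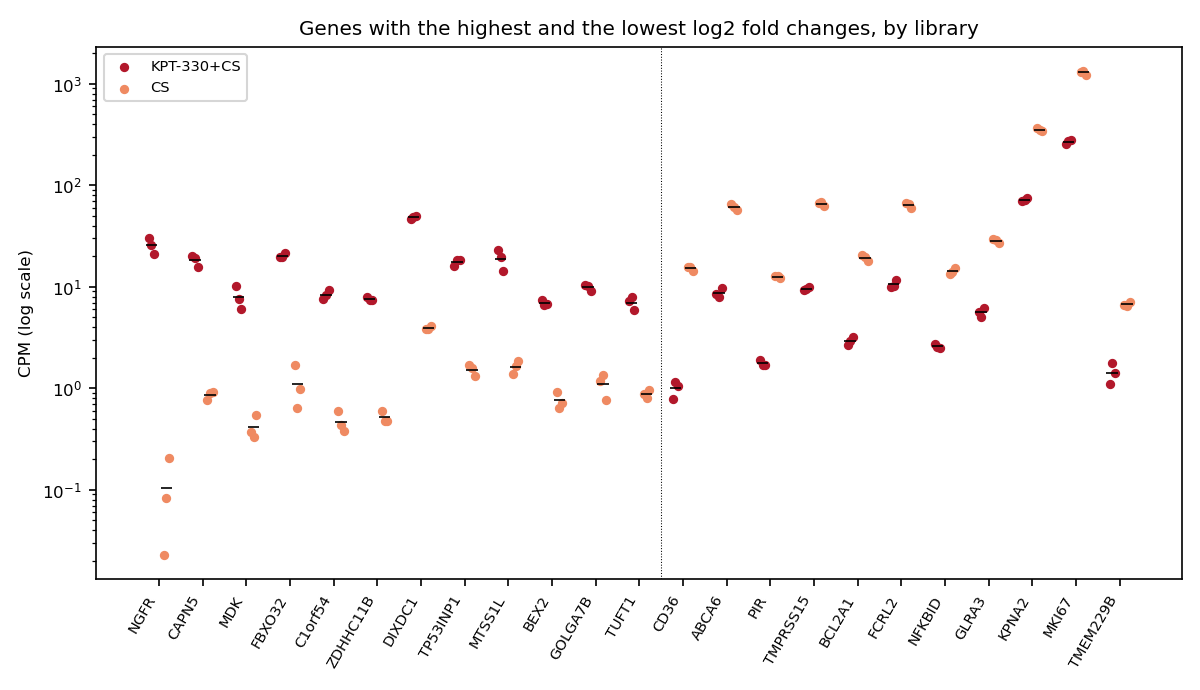
CPM on a log scale in the 3 KPT-330+CS libraries (dark red) and the 3 CS libraries (orange) for the most raised (left) and most lowered (right) genes by log2 fold change, with a line at each group's mean. NGFR spans 21.0 to 30.3 CPM with KPT-330+CS, and no gene has overlapping groups, by the rule that chose them.

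Some genes answered KPT-330 in opposite ways depending on CS. RGS1, which shuts off G protein signals of chemokine receptors, had 4.85, 5.57 and 5.35 CPM in KPT-330+CS and 1.2, 1.22 and 1.22 CPM in CS (2.11 ± 0.14). Without CS it was lower, with 1.29, 1.53 and 1.28 CPM in KPT-330 and 2.94, 2.74 and 3.54 CPM in DMSO (-1.17), which makes the difference 3.28 (edgeR adjusted p = 8.84e-07). GABARAPL1, of the ATG8 family of autophagy proteins, had 12.6, 12 and 14.4 CPM in KPT-330+CS and 6.79, 6.20 and 5.93 CPM in CS (1.04 ± 0.12), but fell by 1.22 without CS. FAM9B and the noncoding DLGAP1-AS1 also rose with CS, by 2.12 and 1.45, and fell without it, by 0.59 and 0.58. MT-TW rose by 1.63 and was at -0.08 without CS.

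The lowest differences belonged to genes that KPT-330 raised less, did not measurably change, or lowered in the presence of CS. SLITRK6, a neuronal membrane protein, rose to 8.55, 7.43 and 7.47 CPM in KPT-330, against 0.739, 0.660 and 0.922 CPM in DMSO. With CS the values were 1.33, 1.65 and 1.87 CPM in KPT-330+CS and 1.22, 1.18 and 0.996 CPM in CS (0.52 ± 0.17, edgeR adjusted p = 0.0202), a call that is lost without KPT-330+CS replicate 2 (0.51) or replicate 3 (0.39) or CS replicate 3 (0.43). LIX1 had 1.81, 1.71 and 1.57 CPM in KPT-330+CS and 0.138, 0.062 and 0.189 CPM in CS, a rise of 3.65, beside 6.23 without CS. Its difference of -2.58 was lost without CS replicate 3 (-2.17, edgeR adjusted p = 0.0516). MDK, the growth factor midkine, had 10.1, 7.65 and 6.01 CPM in KPT-330+CS and 0.368, 0.331 and 0.550 CPM in CS (4.22 ± 0.25), beside 7.02 without CS. PIGR, the receptor that carries polymeric immunoglobulin across epithelia, was at -0.35 and did not pass with CS but rose by 2.01 without it. BBOX1 (ENSG00000129151, hg38 chr11:27040725-27127809), the last enzyme of carnitine synthesis, fell with CS and did not pass without it, with 6.44, 6.69 and 7.51 CPM in KPT-330+CS and 30.5, 29.4 and 29.2 CPM in CS (-2.11 ± 0.08), against 87.3 to 87.5 CPM in KPT-330 and 70.0 to 84.9 CPM in DMSO (0.18, edgeR adjusted p = 0.0575). The difference for BBOX1 was -2.28 (edgeR adjusted p = 1.27e-07). SNX29P2, listed under 2 gene identifiers that overlap, fell by 1.45 with CS and rose by 0.78 without it.

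**Figure D5:**
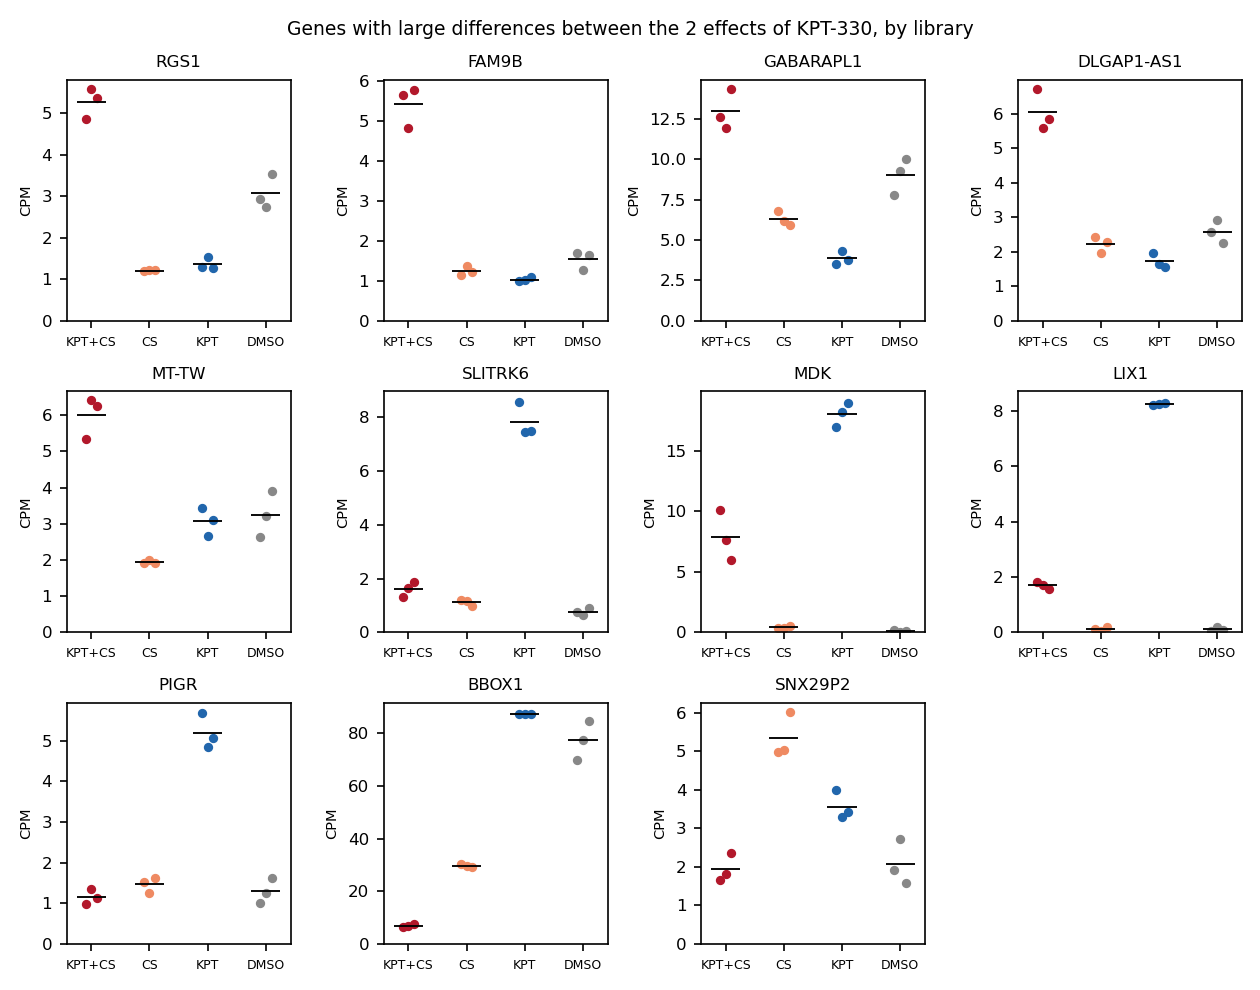
CPM per library in KPT-330+CS, CS, KPT-330 and DMSO, with a line at each mean, for genes with the highest and the lowest differences between both effects of KPT-330. RGS1 and GABARAPL1 are higher in KPT-330+CS than in CS and lower in KPT-330 than in DMSO, and BBOX1 is at 6.44 to 7.51 CPM in KPT-330+CS, below its values in the other groups.

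Markers of other cell types ranged between no reads and clear expression. The erythroid list had 5 reads in KPT-330+CS and 0 in CS over all its genes, and COL3A1, LUM, KRT19 and KDR had at most 1. Other members of the fibroblast list had some reads. COL1A1 had 8 in KPT-330+CS and 15 in CS, DCN 6 and 0, and COL1A2 0 and 2. On these few reads COL1A1 did not pass with CS (-0.806), while its difference from the effect without CS did (-2.675). The plasma cell markers, which include B cell factors such as IRF4, summed to 266 to 295 CPM in KPT-330+CS and 283 to 312 CPM in CS, with 1 of 5 higher and 2 lower. Of the endothelial markers PECAM1 was higher, with 36.8 to 37.8 CPM for the list in KPT-330+CS and 26.1 to 27.7 CPM in CS, and VWF had 26 reads in KPT-330+CS and 2 in CS. Myeloid markers summed to 1.65 to 2.01 CPM in KPT-330+CS and 1.53 to 1.92 CPM in CS, with 1 of 3 higher and 1 lower. The T cell markers summed to 1.76 to 2.30 CPM in KPT-330+CS and 0.496 to 0.739 CPM in CS, with 3 of 5 tested genes higher. In KPT-330+CS CD8A had 103 reads, CD4 91, CD3G 47, CD7 30, CD3E 26 and CD3D 3. In CS these genes had 21, 26, 12, 12, 19 and 6 reads, and CD2 had 0 in both groups. Without CS all 5 tested T cell markers were higher with KPT-330. They summed to 3.59 to 3.86 CPM in KPT-330 and 0.965 to 1.21 CPM in DMSO. Epithelial markers summed to 1.63 to 2.12 CPM in KPT-330+CS and 0.739 to 0.874 CPM in CS, with 1 of 2 tested genes higher. EPCAM had 214 reads in KPT-330+CS and 80 in CS, KRT8 59 and 40, and KRT18 24 and 4. The B cell markers MS4A1 and PAX5 were present in every library.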

How the data were processed

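JEKO-1 RNA was extracted with a fixed-tissue kit, per the labels, and the polyA libraries carry no strand mark, so overlapping genes cannot be told apart. The authors deposited raw counts per gene; per the series design text reads were aligned to hg38 with STAR and counted on Ensembl version 78. STAR and edgeR are also named in the submitters' processing notes, without versions. The study's own 4 comparisons did not include KPT-330+CS against CS. Identifiers were matched to GENCODE 44 for GC content and overlaps, and promoters to RefSeq.

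The counts entered edgeR 4.0.16 (R 4.3.3): filterByExpr by group, TMM scaling, and a two-sided robust quasi-likelihood test in 1 fit of all 12 libraries with group as the only term (8 residual degrees of freedom). Contrasts were KPT-330+CS against CS, KPT-330 against DMSO, and the difference of both effects, with Benjamini-Hochberg adjustment over 19460 genes. Lists are described by counts and medians and were not tested as sets. The steps were tested on simulated data.

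The comparison, the lists and the tests were chosen with earlier results of these data known. Named genes are the 12 highest and 12 lowest log2 fold changes (called, at least 5 CPM in the higher group, no overlap, clone-based, LINC, MIR, SNOR, RNU, HIST and immunoglobulin names passed over), the 6 highest and 6 lowest differences, up to 4 called members (at least 1 CPM) and 2 not called members per list, and 10 genes named in any case. Values for some of these genes and 1 list were left out. Alternatives were no filter, a filter of 1 CPM in 3 libraries, DESeq2 size factors, scaling by library total, DESeq2 1.42.0, limma voom (limma 3.58.1), a GC correction (lowess, span 0.3), a replicate block, a fit of only the groups compared, and each library left out. Leaving out the lowest-GC-slope libraries together was chosen after seeing the data. Matplotlib 3.10.9 (Python 3.11.15) drew the figures.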

Additional observations from a re-analysis of the deposited data

Results flagged for a closer look

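Among the genes taken by the size of their fold change or difference, or named in any case, 26 with an effect of KPT-330 that differed with and without CS by the test of the difference in edgeR are given here. Those named from gene lists have their differences beside their values above. The genes with the highest and the lowest difference were named by this same measure, so their sizes are a description. Values are the difference between the log2 fold change of KPT-330+CS against CS and that of KPT-330 against DMSO.

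Among the highest differences were RGS1 at 3.28, FAM9B at 2.71, GABARAPL1 at 2.26, DLGAP1-AS1 at 2.03 and MT-TW at 1.70. Among the genes that rose most with CS, ZDHHC11B differed by 1.10 and TP53INP1 by 1.06. MYC differed by 0.38, with an edgeR adjusted p of 0.0289 that ranged up to 0.0925 under the alternatives.

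The lowest differences were -2.81 for SLITRK6, -2.80 for MDK, -2.58 for LIX1, -2.37 for PIGR, -2.28 for BBOX1 and -2.23 for SNX29P2. Among the genes that fell most with CS, ABCA6 differed by -1.84, CD36 by -1.68 and NFKBID by -1.57. TMEM229B followed at -1.16, TMPRSS15 at -1.13, MKI67 at -0.80, GLRA3 at -0.76 and KPNA2 at -0.65. The difference of FCRL2 was -0.41 (edgeR adjusted p = 0.0218) and its adjusted p reached 0.0645 with a library left out. CCNE2 differed by -0.84, BRCA1 by -0.58 and CDKN1A by -0.65. The edgeR adjusted p of CDKN1A was 0.039 and ranged up to 0.0926 under the alternatives.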

How the results depend on the processing

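The counts of higher and lower genes in KPT-330+CS against CS stayed within 1.5 times of 5081 and 4216 under every alternative run. Counts beyond 2 on the log2 scale followed the filter: 783 higher and 175 lower without a filter, and 181 and 48 with the stricter filter, which tests fewer genes. For KPT-330 against DMSO, 2905 genes were lower with libraries scaled by their total, 213 were beyond 2 with the stricter filter, and 118 and 24 were below -2 without a filter and with the stricter one. The difference of both effects was more sensitive. Leaving out a library gave 885 to 2639 higher and 828 to 2072 lower differences, and GC correction gave 2959 lower ones; the cause was not tested. Replicate numbers did not pair the samples: the deviations of same-numbered KPT-330+CS and CS libraries correlated at -0.29, -0.01 and -0.37. With the replicate block 1031 higher differences were called, and with GC correction and the block 2749 lower ones. Some list medians near 0 changed sign. With libraries scaled by their total they were 0.021 for G1 regulators, 0.015 for mitochondrial messenger RNAs, 0.009 for ribosomal proteins and 0.073 for plasma cell markers. GC correction without and with the replicate block gave -0.046 and -0.063 for ATF4-linked genes and -0.088 and -0.10 for immediate-early genes. With each library left out in turn the ATF4 median ranged between -0.11 and 0.172, the transfer RNA median between -0.014 and 0.203 and the plasma cell marker median between -0.188 and 0.039, and the last was 0.043 without the lowest-GC-slope libraries. Of 233 named genes 176 kept the side of the threshold in every alternative that tested them, as did 37 of 45 for the difference; the others include RPL3, ULK1, MT-ND5, MT-ATP8, PSMB9 and SDF2L1. Depth limits genes under 1 CPM, such as IFIT2 in CS.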
